A study of Homo sapiens with 9 samples.

Results

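FOLR2, DNAH11, TRPM4 and MGP were the 4 genes with lower RNA levels after Wnt3a treatment in TC32 cells, an established line from Ewing sarcoma. They were chosen from 58233 gene IDs, of which 17880 had enough reads to be tested, because they were the ones past an adjusted p of 0.05 in the lower direction when Wnt3a cells were compared with vehicle cells. All 4 were among the genes tested. Polyadenylated RNA was sequenced from 9 libraries in 3 groups of 3. Inhibitor cells received Wnt3a for 28 h and, for the last 24 h of it, SB-505124, which blocks type I receptor kinases of the TGF-β family. Wnt3a cells received the ligand for 28 h without SB-505124, and vehicle cells received neither. PBS was the vehicle of Wnt3a and DMSO that of SB-505124, and all cells grew in RPMI medium with fetal bovine serum. SB-505124 was not given without Wnt3a, and the sources used here name no dose of either agent. The labels do not say whether replicates were separate cultures; the p-values therefore speak only of the spread among these libraries, and that spread may be technical.

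Wnt3a is a secreted ligand that stabilises β-catenin, which acts with TCF and LEF factors at target genes and is known mainly as an activator of transcription. TGF-β ligands signal through receptor kinases to SMAD proteins, and in many tissues the pathways share target genes. The 4 genes have different functions. FOLR2 encodes folate receptor β, a folate-binding protein anchored on the outer side of the plasma membrane and best known from macrophages. DNAH11 encodes a heavy chain of the outer dynein arms that bend motile cilia, and its loss causes primary ciliary dyskinesia. TRPM4 is a calcium-activated channel that lets sodium and potassium, but not calcium, through the plasma membrane. MGP, matrix Gla protein, is a small secreted inhibitor of calcification that depends on vitamin K and is abundant in cartilage and in vascular smooth muscle.

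Total counts per library were 28844348 to 37540072 in inhibitor cells, 36903919 to 42976799 in Wnt3a cells and 34348339 to 38637007 in vehicle cells. Inhibitor libraries had reads on 23279 to 23335 genes, against 25201 to 26876 in the other 6 libraries, and their composition factors (TMM) were 0.8763 to 0.9141, against 1.023 to 1.103. Inhibitor replicate 1 stood apart from replicates 2 and 3, with chi-square values over genes, divided by their degrees of freedom, of 65.7 and 68.3, against 10.3 between those replicates. Vehicle replicate 2 likewise stood apart from vehicle replicates 1 and 3, at 41.4 and 37.8, against 7.37 between those. The pairs of Wnt3a libraries had 21.4, 36.8 and 40.5. AXIN2, a feedback gene of the Wnt pathway, averaged 31.1 ± 4.10 CPM in inhibitor cells, 20.1 ± 2.82 CPM in Wnt3a cells and 3.29 ± 0.326 CPM in vehicle cells, where CPM is a count relative to the library total after TMM scaling, and errors are SD with n = 3. PMEPA1, a feedback gene of the TGF-β pathway, averaged 14.0 ± 0.545 CPM in inhibitor cells, 48.3 ± 6.66 CPM in Wnt3a cells and 47.2 ± 2.52 CPM in vehicle cells. AXIN2 was thus higher in both groups given Wnt3a, and PMEPA1 was lower in the group given SB-505124. AXIN2 was also higher in inhibitor than in Wnt3a cells (log2 0.63, adjusted p = 0.00471 in edgeR's test), though both had Wnt3a. Other genes of these pathways went otherwise. NKD2, of the Wnt pathway, had 5.17, 13.3 and 5.53 CPM in inhibitor, Wnt3a and vehicle cells. CCN2, a TGF-β target gene, had 499, 212 and 136 CPM in that order. SMAD7, another feedback gene of the TGF-β pathway, averaged 14.9 ± 2.96 CPM in inhibitor cells, 18.0 ± 0.916 CPM in Wnt3a cells and 13.4 ± 0.821 CPM in vehicle cells. It was not called in inhibitor against Wnt3a cells (log2 -0.27, adjusted p = 0.157 in edgeR's test). All 7 markers of Ewing sarcoma lines were detected, with summed levels of 1290 to 1580 CPM in inhibitor cells, 1450 to 1610 CPM in Wnt3a cells and 1880 to 1970 CPM in vehicle cells. Most of each sum was CD99, at 976, 931 and 1140 CPM in that order. In inhibitor against Wnt3a cells 3 markers were called lower (LIPI, NKX2-2 and NR0B1) and 0 higher, where 25.9% of all genes tested were lower. Against vehicle cells 4 were lower, these and STEAP1, and 0 higher, where 24.8% of all genes were lower.

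MGP was by far the most abundant of the 4 RNAs. Per transcript length, its mean level was 830 TPM in inhibitor cells, 805 TPM in Wnt3a cells and 1210 TPM in vehicle cells, which placed it at the 99.0th, 98.9th and 99.2th percentile of the genes tested. TRPM4 followed with 60.0, 76.8 and 121 TPM in the same order of groups, at the 86.3th, 89.1th and 93.5th percentile. DNAH11 and FOLR2 lay below the median gene, which had 7.26 TPM in inhibitor cells, 9.55 TPM in Wnt3a cells and 8.64 TPM in vehicle cells. DNAH11 had 2.86, 3.23 and 6.13 TPM, and FOLR2 had 0.957, 0.817 and 3.51 TPM. In each group the library values of neighbours in this order did not overlap, so the order MGP, TRPM4, DNAH11, FOLR2 held in all 9 libraries.

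**Figure D1:**
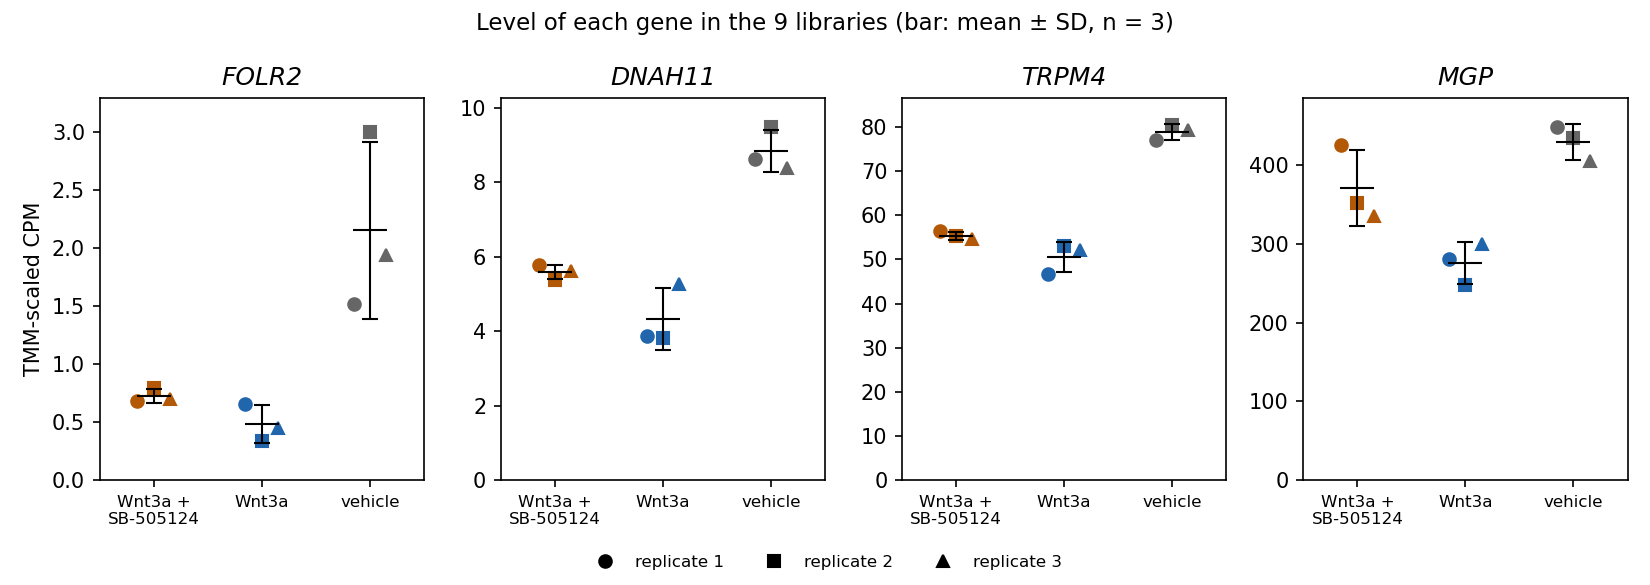
Level of each gene in TMM-scaled CPM (y axis, from 0) in the 3 libraries of inhibitor (Wnt3a with SB-505124), Wnt3a and vehicle cells, with a horizontal line for the mean and a bar for the SD (n = 3). For every gene the 3 Wnt3a libraries lie below the 3 vehicle libraries, and the inhibitor libraries lie below vehicle for FOLR2, DNAH11 and TRPM4, while 1 MGP inhibitor library at 425 CPM reaches the vehicle range.

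FOLR2 (ENSG00000165457.13) lies on chromosome 11 of hg38, at 72216601 to 72221950 on the plus strand. It rested on few reads: 18, 26 and 22 in inhibitor cells, 26, 15 and 20 in Wnt3a cells, and 54, 124 and 76 in vehicle cells. Scaled, these were 0.683, 0.791 and 0.703 CPM in inhibitor cells, 0.659, 0.335 and 0.455 CPM in Wnt3a cells, and 1.52, 3.0 and 1.94 CPM in vehicle cells. The lowest vehicle library was above every treated library, and vehicle replicate 2 was the highest of all. Wnt3a cells had 22.4% of the vehicle level, a log2 difference of -2.16 (SE 0.372) that selected the gene at an adjusted p of 0.0428 in edgeR's quasi-likelihood test. In bulk RNA, fewer cells that express a gene and less of its RNA per cell cannot be told apart.

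DNAH11 (ENSG00000105877.17) spans 358625 bases of chromosome 7, at 21543215 to 21901839 on the plus strand. Its expected counts were 152, 177 and 176 in inhibitor cells, 153, 171 and 232 in Wnt3a cells, and 307, 391 and 328 in vehicle cells. The levels were 5.77, 5.38 and 5.62 CPM in inhibitor cells, 3.88, 3.82 and 5.28 CPM in Wnt3a cells, and 8.63, 9.47 and 8.39 CPM in vehicle cells. The 3 groups formed separate ranges, with Wnt3a replicate 3 just below the inhibitor libraries. Wnt3a cells had 49.0% of the vehicle level, a log2 difference of -1.03 (SE 0.177) that selected the gene at an adjusted p of 0.0428 in edgeR's test.

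TRPM4 (ENSG00000130529.15) lies on chromosome 19, at 49157741 to 49211836 on the plus strand. Its levels were 56.3, 55.3 and 54.5 CPM in inhibitor cells, 46.7, 52.9 and 52.1 CPM in Wnt3a cells, and 76.9, 80.4 and 79.3 CPM in vehicle cells, from 1484 to 3318 reads per library. The groups were narrow and the treated libraries lay well below vehicle. Wnt3a cells had 64.1% of the vehicle level, a log2 difference of -0.64 (SE 0.0828). Of the 4 genes it had the lowest selecting adjusted p, 0.00964 in edgeR's test.

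MGP (ENSG00000111341.9) lies on chromosome 12, at 14881181 to 14885926 on the minus strand, and was read 10494 to 17921 times per library. Its levels were 425, 352 and 335 CPM in inhibitor cells, 281, 247 and 299 CPM in Wnt3a cells, and 448, 434 and 404 CPM in vehicle cells. Inhibitor replicate 1 was inside the vehicle range, and the other inhibitor libraries were between the Wnt3a and vehicle ranges. Wnt3a cells had 64.3% of the vehicle level, a log2 difference of -0.64 (SE 0.112) that selected the gene at an adjusted p of 0.0487 in edgeR's test.

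These Wnt3a values chose the genes and are given as a description. The lower calls were 4 of 17880 genes tested, 0.0224%, against 71 higher calls, 0.397%, and the library ranges did not overlap in the lower direction for 8.19% of all genes tested. At an unadjusted p under 0.05, 497 genes were lower and 865 higher. The threshold ran through a group of genes with like values. Just outside it were ANGPTL4, with 12.9 CPM in Wnt3a cells and 23.1 CPM in vehicle cells (log2 -0.84, adjusted p = 0.0535 in edgeR's test), A4GALT (log2 -1.28) and STEAP1 (log2 -0.58), both at an adjusted p of 0.0564, SLCO3A1 (log2 -0.60, 0.0702) and CHRDL1 (log2 -0.79, 0.0726). Just inside it was MGP at 0.0487. The number of the 4 genes called was 0 without vehicle replicate 1, vehicle replicate 3 or Wnt3a replicate 1. It was 1 without vehicle replicate 2, Wnt3a replicate 2 or inhibitor replicate 2 or 3, 2 without Wnt3a replicate 3, and 4 without inhibitor replicate 1. Each log2 difference stayed negative in all of these fits.

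Promoter sequences of DNAH11 and TRPM4 are shown because SMAD and TCF/LEF proteins are the DNA-binding factors of the manipulated pathways. They are the RefSeq windows (GRCh38.p14) of 250 bases before to 50 bases after the start, for 2 of the 4 genes, at chr7:21542789-21543088 and chr19:49157542-49157841, plus strand, written 5′ to 3′. Capitals mark the SMAD box CAGAC on either strand (GTCTG on the opposite one).

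DNAH11: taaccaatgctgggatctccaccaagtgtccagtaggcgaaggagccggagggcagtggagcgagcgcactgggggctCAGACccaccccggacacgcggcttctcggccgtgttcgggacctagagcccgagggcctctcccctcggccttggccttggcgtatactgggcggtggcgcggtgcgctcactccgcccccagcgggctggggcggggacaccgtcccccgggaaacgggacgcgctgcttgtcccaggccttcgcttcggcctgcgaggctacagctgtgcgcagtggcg

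TRPM4: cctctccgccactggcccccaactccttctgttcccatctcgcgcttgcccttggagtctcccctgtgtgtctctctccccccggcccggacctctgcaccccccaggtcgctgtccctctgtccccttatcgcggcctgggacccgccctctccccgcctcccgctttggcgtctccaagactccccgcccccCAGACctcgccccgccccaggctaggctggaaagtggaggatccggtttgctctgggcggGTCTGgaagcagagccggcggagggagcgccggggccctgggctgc

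DNAH11 held 1 SMAD box and TRPM4 held 2, a motif found in 45.3% of all 35116 promoter windows. The TCF/LEF core, CTTTGA or CTTTGT on either strand, was found in 26.2% of windows and in neither gene. The ETS core CCGGAA (17.2% of windows) and the pair GGAAGGAA (3.67%), letters that EWSR1-FLI1 is known to bind and that share GGAA with each other, were also in neither. The DNAH11 window ends before the GENCODE start of the gene given above, since the annotations place the start differently. Such matches describe letters in these windows and not binding. GC content was 70.3% for DNAH11 and 71.0% for TRPM4, against a median of 58.7% over all windows.

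With SB-505124 added to Wnt3a, MGP was the gene of the 4 that changed relative to Wnt3a alone. It rose to 371 ± 47.5 CPM in inhibitor cells, against 276 ± 26.0 CPM in Wnt3a cells (SD, n = 3 each), or 134% of the Wnt3a level (log2 0.43, SE 0.112, adjusted p = 0.00978 in edgeR's test). In this comparison 24.5% of all genes tested were higher and 25.9% lower, and 1 of the 4 genes was higher and none lower, which is not a result about the 4 genes. This comparison shares the 3 Wnt3a libraries with the one that chose the genes, so its p-values are not independent of that choice. DNAH11 averaged 5.59 ± 0.195 CPM in inhibitor cells and 4.33 ± 0.829 CPM in Wnt3a cells (log2 0.37, 95% interval 0.02 to 0.72, adjusted p = 0.107 in edgeR's test). FOLR2 averaged 0.726 ± 0.0573 CPM in inhibitor cells and 0.483 ± 0.164 CPM in Wnt3a cells (log2 0.59, 95% interval -0.15 to 1.33, adjusted p = 0.217). TRPM4 averaged 55.4 ± 0.915 CPM in inhibitor cells and 50.5 ± 3.38 CPM in Wnt3a cells (log2 0.13, 95% interval -0.03 to 0.29, adjusted p = 0.209). The intervals are of the single genes, with no adjustment, and are narrower than the test itself would give. The DNAH11 interval leaves out 0, although its unadjusted p was 0.063 in edgeR's test. In TMM-scaled CPM, the lowest inhibitor library was above the highest Wnt3a library in all 4 genes, as in 27.8% of all genes tested. The Wnt3a libraries also chose the genes, and in TPM none of the genes separated this way. FOLR2 had 0.89, 1.03 and 0.95 TPM in inhibitor cells and 1.1, 0.60 and 0.75 TPM in Wnt3a cells. DNAH11 had 3.66, 2.51 and 2.42 TPM in inhibitor cells and 2.61, 2.59 and 4.49 TPM in Wnt3a cells.

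The rise of MGP depended on how libraries were scaled. With library totals alone, which moved the median of all genes to -0.31 on the log2 scale, its difference was 0.18 (adjusted p = 0.183 in edgeR's test), and on log2(TPM + 1) it was 0.04 (adjusted p = 0.802 in limma). TRPM4 changed sign under the same settings, to -0.12 with library totals (adjusted p = 0.269) and to -0.36 on log2(TPM + 1), where it was called lower (adjusted p = 0.0184 in limma). In TPM, TRPM4 had 69.48, 53.84 and 56.56 in inhibitor cells, 72.56, 82.23 and 75.53 in Wnt3a cells, and 116.64, 121.22 and 125.36 in vehicle cells. Without Wnt3a replicate 3, DNAH11 passed as well (log2 0.54, adjusted p = 0.0308 in edgeR's test).

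Relative to vehicle, FOLR2, DNAH11 and TRPM4 were lower in inhibitor cells. FOLR2 fell to 0.726 ± 0.0573 CPM, against 2.16 ± 0.765 CPM in vehicle cells, 33.8% of the vehicle level (log2 -1.57, SE 0.366, adjusted p = 0.00532 in edgeR's test). DNAH11 fell to 5.59 ± 0.195 CPM, against 8.83 ± 0.568 CPM in vehicle cells, or 63.3% (log2 -0.66, SE 0.176, adjusted p = 0.0106). TRPM4 fell to 55.4 ± 0.915 CPM, against 78.8 ± 1.8 CPM in vehicle cells, or 70.2% (log2 -0.51, SE 0.0828, adjusted p = 0.000649). MGP had 371 ± 47.5 CPM in inhibitor cells and 429 ± 22.2 CPM in vehicle cells, or 86.4%, with overlapping libraries (log2 -0.21, 95% interval -0.43 to 0.01, adjusted p = 0.145). Lower calls made up 24.8% of all genes tested and higher calls 25.0%, and 29.8% had inhibitor libraries wholly below the vehicle libraries, as FOLR2, DNAH11 and TRPM4 did.

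Inhibitor cells also carried the Wnt3a treatment, and the vehicle libraries are those that chose the genes, so these p-values too are not independent of the choice. The inhibitor libraries entered the choice through the estimate of spread shared by all 9 libraries. FOLR2, DNAH11 and TRPM4 stayed lower under every alternative run, with adjusted p-values up to 0.0250, 0.0387 and 0.00445. MGP passed as lower in 3 alternatives: library totals alone (log2 -0.44, adjusted p = 0.00743 in edgeR's test), log2(TPM + 1) in limma (log2 -0.55, adjusted p = 0.00273) and without inhibitor replicate 1 (log2 -0.31, adjusted p = 0.0238 in edgeR's test). In TPM, MGP had 959.82, 774.56 and 754.39 in inhibitor cells, 822.45, 750.79 and 842.48 in Wnt3a cells, and 1260.57, 1228.14 and 1135.27 in vehicle cells.

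**Figure D2:**
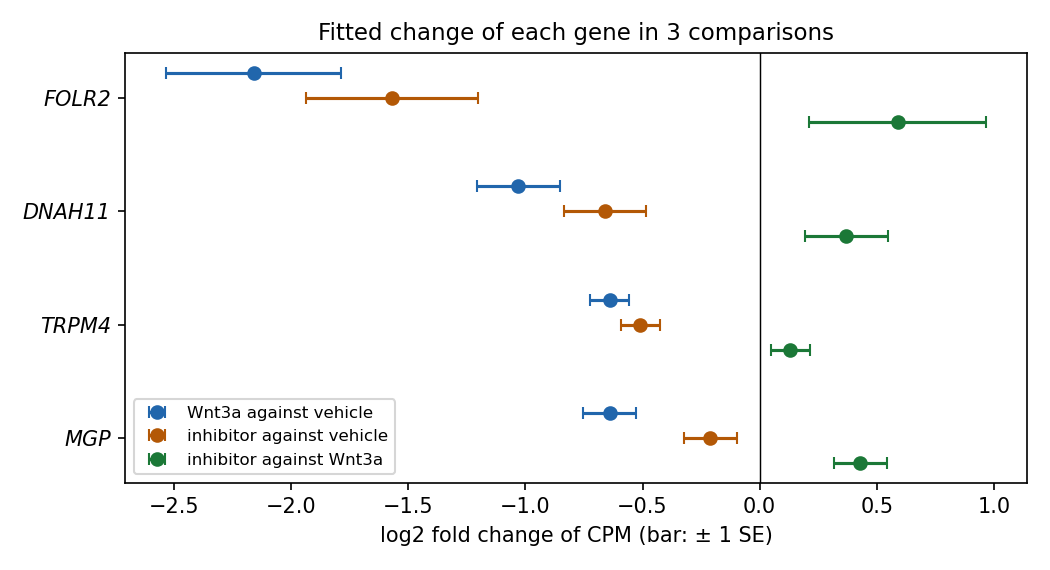
Fitted log2 fold change of CPM (x axis) of the 4 genes (rows) in the comparisons of Wnt3a with vehicle, inhibitor with vehicle and inhibitor with Wnt3a, with bars of 1 SE. All 4 points of inhibitor against Wnt3a lie right of 0, between 0.13 and 0.59, and MGP at 0.43 is the one that passed; the Wnt3a points chose the genes and are a description.

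A gene's transcripts were a measure that the choice of genes did not use. The tables give for each gene a mean length of its transcripts, weighted by their estimated abundance, so a change in it reports a change in the mix. None of the 4 genes passed in this measure in any comparison with limma, where 0.0228% of 13130 genes were called for Wnt3a against vehicle, 4.62% for inhibitor against Wnt3a and 4.62% for inhibitor against vehicle. At an unadjusted p under 0.05, 2 of the 4, TRPM4 and MGP, were longer in inhibitor cells than in vehicle cells, as were 3.40% of the 13130 genes, while 13.8% were shorter.

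TRPM4 transcripts averaged 1001, 1257 and 1218 bases in inhibitor cells, 1015, 1060 and 1067 bases in Wnt3a cells, and 996, 991 and 969 bases in vehicle cells. Inhibitor replicates 2 and 3 were longer than all other libraries, and inhibitor replicate 1 was not. The log2 difference was 0.23 for inhibitor against vehicle (adjusted p = 0.199 in limma) and 0.14 for inhibitor against Wnt3a (adjusted p = 0.444). Without inhibitor replicate 1 these were 0.33 (adjusted p = 0.00474) and 0.24 (adjusted p = 0.0119), which passed. MGP transcripts averaged 569, 583 and 589 bases in inhibitor cells, 563, 568 and 572 bases in Wnt3a cells, and 560, 552 and 568 bases in vehicle cells. The MGP log2 difference of inhibitor against vehicle was 0.05 (adjusted p = 0.171 in limma). DNAH11 transcripts averaged 1892, 2568 and 2868 bases in inhibitor cells, 2285, 2372 and 1788 bases in Wnt3a cells, and 2048, 2036 and 2293 bases in vehicle cells, with broad overlap. FOLR2 read 951 bases, the length of 1 of its 10 annotated transcripts, in 7 of 9 libraries, with 930 bases in Wnt3a replicate 2 and 890 bases in vehicle replicate 3.

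**Figure D3:**
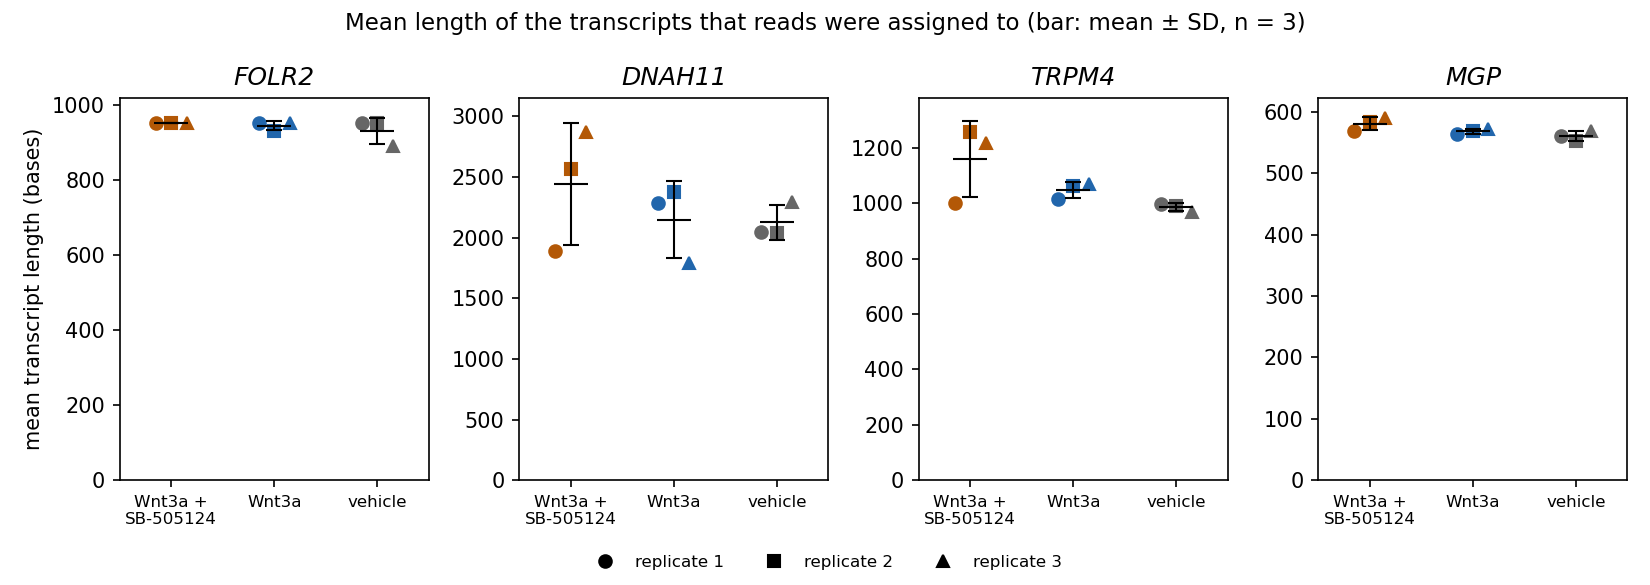
Mean transcript length in bases (y axis, from 0), weighted by estimated abundance, of each gene in the libraries of inhibitor, Wnt3a and vehicle cells, with the mean as a line and the SD as a bar (n = 3). TRPM4 in inhibitor replicates 2 and 3, at 1257 and 1218 bases, lies above the other 7 libraries, which read 969 to 1067 bases.

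The mean length, with the gene's TPM, also bounds how much of a gene's RNA can be full length. DNAH11 has 12 transcripts in GENCODE release 29, of 418 to 14167 bases: 9 of at most 784 bases and 3 of at least 13670 bases, and the dynein heavy chain needs the long ones. Its mean lengths allow the long transcripts 8.28 to 18.5% of its transcript molecules in inhibitor cells, 7.51 to 14.7% in Wnt3a cells and 9.35 to 14.2% in vehicle cells. In TPM that is 0.303 to 0.447 in inhibitor cells, 0.293 to 0.464 in Wnt3a cells and 0.585 to 0.826 in vehicle cells. The short transcripts took 1.97 to 3.36 TPM in inhibitor cells, 2.21 to 4.15 TPM in Wnt3a cells and 4.67 to 6.14 TPM in vehicle cells. The shares overlapped between the groups. The TPM bounds are these shares of the gene's TPM, so the gap between Wnt3a and vehicle cells restates the difference that chose the gene.

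TRPM4 has 14 transcripts, of 532 to 4109 bases, 6 of at most 780 bases and 8 of at least 1829 bases. The short ones took 44.1 to 93.4% of its molecules in inhibitor cells, 58.7 to 92.9% in Wnt3a cells and 64.2 to 94.3% in vehicle cells. The bounds for its long transcripts overlapped, at 4.62 to 30.1 TPM in inhibitor cells, 5.12 to 33.5 TPM in Wnt3a cells and 7.12 to 42.9 TPM in vehicle cells. Those for its short transcripts did not overlap between inhibitor cells, at 23.8 to 64.9 TPM, and vehicle cells, at 74.9 to 118 TPM. Wnt3a cells, at 44.4 to 75.3 TPM, reached the vehicle range. These bounds are shares of the total TPM, which was 53.84 to 69.48 in inhibitor cells and 116.64 to 125.36 in vehicle cells. The shares overlapped, so the gap restates that of the total, with vehicle libraries that chose the gene. It does not show a fall confined to short transcripts. MGP has 4 transcripts, and the shortest of them, of 423 bases, took 38.8 to 85.1% of its molecules in inhibitor cells, 44.8 to 85.7% in Wnt3a cells and 46.6 to 86.9% in vehicle cells. These bounds assume that release 29 holds every transcript, and they carry no sampling error.

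**Figure D4:**
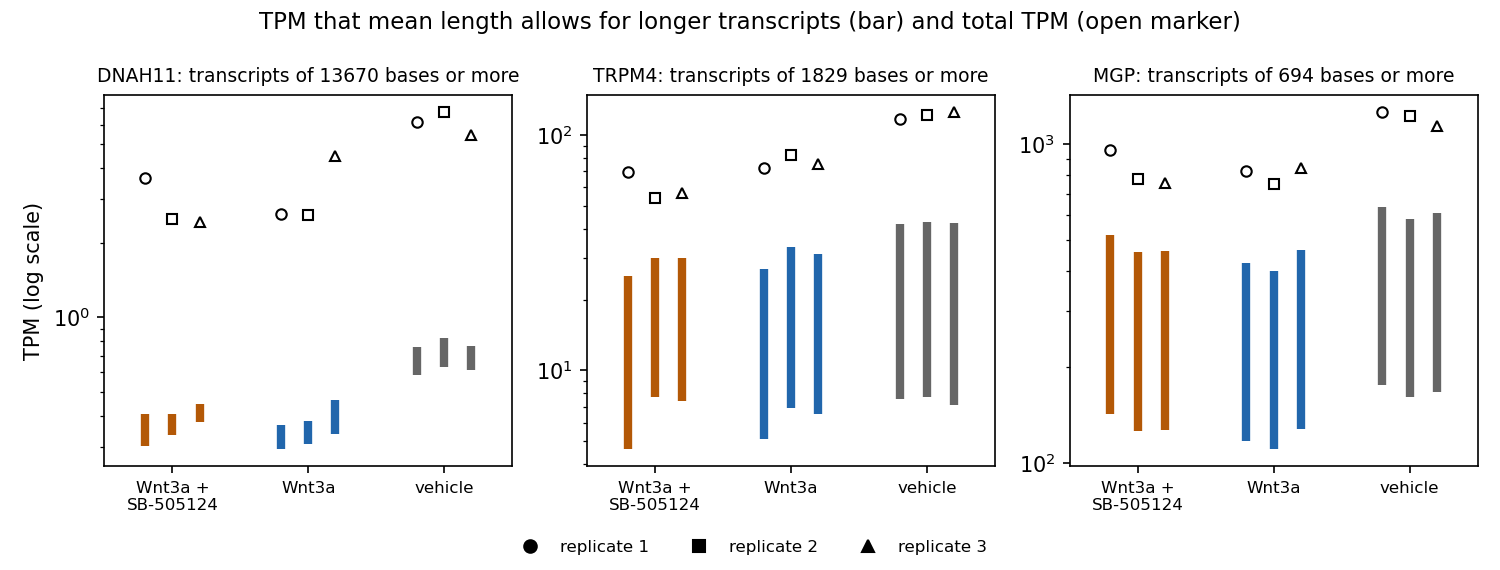
TPM on a log axis (y) that the mean length allows for the longer transcripts of DNAH11, TRPM4 and MGP (bars from lowest to highest bound) and the total TPM of the gene (open markers) in each library of inhibitor, Wnt3a and vehicle cells. DNAH11 bars of treated cells end at or below 0.464 TPM and vehicle bars begin at 0.585 TPM, while TRPM4 bars overlap between groups. The bars are shares of the total TPM, so a gap in the total carries into them.

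The annotated neighbours were measured in the same libraries. CDCA7L, a gene on the opposite strand whose end overlaps DNAH11 by 940 bases, averaged 124 ± 9.87 CPM in inhibitor cells, 81.1 ± 0.504 CPM in Wnt3a cells and 89.1 ± 1.21 CPM in vehicle cells. It rose in inhibitor against Wnt3a cells (log2 0.62, adjusted p = 0.000211 in edgeR's test), and its Wnt3a against vehicle difference was -0.14 (adjusted p = 0.798). The DNAH11 and CDCA7L counts hold fractions that add up to whole numbers in every library, as with 151.52 and 3561.48 in inhibitor replicate 1. Some reads were therefore shared out between these genes, although they run on opposite strands. MGP lies wholly within C12orf60, which runs on the opposite strand. C12orf60 averaged 0.510 CPM in inhibitor cells, 1.57 CPM in Wnt3a cells and 1.5 CPM in vehicle cells, and fell in inhibitor against Wnt3a cells (log2 -1.60, adjusted p = 0.00262). MGP and C12orf60 held such fractions in inhibitor replicate 3 (10493.98 and 22.02) and vehicle replicate 3 (15802.98 and 70.02). The library kit keeps the strand, but the strand setting of the counting is not given in the sources used here. How large a share of reads came from an opposite gene was not tested for either pair. INPPL1, which starts 1751 bases beyond FOLR2, averaged 117 CPM in inhibitor cells, 101 CPM in Wnt3a cells and 97.7 CPM in vehicle cells and was called in no comparison. HRC, 2317 bases from TRPM4, had too few reads to be tested, at 0.180 CPM in inhibitor cells, 0.135 CPM in Wnt3a cells and 0.0950 CPM in vehicle cells. SP4, 28393 bases from DNAH11, averaged 15.7 CPM in inhibitor cells, 7.27 CPM in Wnt3a cells and 6.86 CPM in vehicle cells and rose in inhibitor against Wnt3a cells (log2 1.11, adjusted p = 0.00194 in edgeR's test). RAPGEF5, 216399 bases away on the other side, fell to 0.102 CPM in inhibitor cells, against 0.735 CPM in Wnt3a cells (log2 -2.83, adjusted p = 0.000633), with 0.774 CPM in vehicle cells.

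Over the 9 libraries, the genes nearest in pattern were found by the root mean square difference of log2 CPM, each gene centred on its own mean. The search covered 13187 genes tested, with a mean of at least 1 CPM and a symbol that is not a clone name. Nearest to TRPM4 were STEAP3, a ferrireductase, at 0.076, SLCO3A1, an organic anion transporter, at 0.10 and RNASET2, a ribonuclease, at 0.11, against a median of 0.45 over all genes. STEAP3 averaged 12.8 ± 0.699 CPM in inhibitor cells, 12.7 ± 0.639 CPM in Wnt3a cells and 18.5 ± 0.332 CPM in vehicle cells. Nearest to DNAH11 were OTOF at 0.18, XDH at 0.20 and TRPM4 itself at 0.20 (median 0.57). Nearest to MGP were PDCD2L at 0.14, NPM3 at 0.15 and PC, pyruvate carboxylase, at 0.15 (median 0.44). Nearest to FOLR2 were ART3 at 0.47, DNAH11 at 0.54 and A4GALT at 0.59 (median 0.98). FOLR2 itself ranged over 2.98 log2 units, against 1.30 for DNAH11, 0.78 for TRPM4 and 0.86 for MGP, and the distances are not scaled to those ranges. These distances describe 9 libraries that share 3 treatments. DNAH11 and TRPM4 were chosen by the same Wnt3a threshold, and A4GALT and SLCO3A1 lay just outside it, so that choice favours their closeness.

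The relatives of the 4 genes were counted in lists that leave the 4 genes out, and each count in inhibitor against Wnt3a cells is to be read against the 24.5% of all genes that were higher and the 25.9% that were lower. Among 21 folate uptake and folate metabolism genes tested, none was called in Wnt3a against vehicle cells (median log2 -0.06, against 0.01 over all genes), while 3 rose and 10 fell in inhibitor against Wnt3a cells (median -0.49, against -0.06 over all genes). MTR, methionine synthase, fell to 61.3 ± 9.35 CPM in inhibitor cells, against 157 ± 16.3 CPM in Wnt3a cells (log2 -1.36, adjusted p = 2.25e-05 in edgeR's test). MTHFD2, a mitochondrial folate enzyme, rose to 424 ± 49.2 CPM, against 189 ± 31.2 CPM in Wnt3a cells (log2 1.17, adjusted p = 0.000187). The other folate receptors were nearly silent: FOLR1 had 7 reads in all inhibitor libraries, 21 in all Wnt3a libraries and 26 in all vehicle libraries, and FOLR3 had 1 read, in vehicle cells.

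Of 9 other dynein heavy chains tested, none was called in Wnt3a against vehicle cells (median log2 0.27), and 1 rose and 3 fell in inhibitor against Wnt3a cells (median -0.91). DNAH9, another outer arm heavy chain, averaged 3.05 ± 0.711 CPM in inhibitor cells, 5.74 ± 1.25 CPM in Wnt3a cells and 3.04 ± 0.660 CPM in vehicle cells, and fell in inhibitor against Wnt3a cells (log2 -0.91, adjusted p = 0.0160 in edgeR's test). The riser was DYNC1H1, the heavy chain of the dynein that carries cargo in the cytoplasm, at 860 ± 140 CPM in inhibitor cells and 587 ± 58.9 CPM in Wnt3a cells (log2 0.55, adjusted p = 0.00588). Of 18 genes of motile cilium assembly, none was called in Wnt3a against vehicle cells, and 1 rose and 5 fell in inhibitor against Wnt3a cells (median -0.39). RFX3, a transcription factor of ciliated cells, rose to 39.6 ± 4.55 CPM in inhibitor cells, against 11.5 ± 1.19 CPM in Wnt3a cells (log2 1.78, adjusted p = 5.56e-05).

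Of 10 other TRP channels, none was called in Wnt3a against vehicle cells (median log2 0.02), and 3 rose and 3 fell in inhibitor against Wnt3a cells (median 0.20). TRPC4, a calcium-permeable channel, rose to 107 ± 9.70 CPM in inhibitor cells, against 36.2 ± 3.18 CPM in Wnt3a cells (log2 1.56, adjusted p = 4.56e-06 in edgeR's test). PKD2 fell to 33.2 ± 5.92 CPM, against 59.6 ± 4.44 CPM in Wnt3a cells (log2 -0.85, adjusted p = 0.000476). Of 14 genes of calcium entry and TRPM4 partners, none was called in Wnt3a against vehicle cells, and 2 rose and 3 fell in inhibitor against Wnt3a cells. ORAI2, a subunit of store-operated calcium channels, fell to 10.9 ± 1.91 CPM in inhibitor cells, against 52.2 ± 2.27 CPM in Wnt3a cells (log2 -2.25, adjusted p = 3.62e-06).

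Of 12 genes of the vitamin K cycle and other Gla proteins, none was called in Wnt3a against vehicle cells (median log2 0.05), and 3 rose and 3 fell in inhibitor against Wnt3a cells. VKORC1L1, which recycles vitamin K, fell to 26.1 ± 6.59 CPM in inhibitor cells, against 65.1 ± 3.28 CPM in Wnt3a cells (log2 -1.32, adjusted p = 9e-05 in edgeR's test). PROS1, the Gla protein known as protein S, rose to 42.5 ± 3.58 CPM, against 23.7 ± 1.66 CPM in Wnt3a cells (log2 0.84, adjusted p = 0.000277). Of 18 genes of mineralisation and cartilage, BMP7 was the one called in Wnt3a against vehicle cells, at 76.8 ± 1.49 CPM in Wnt3a cells and 39.4 ± 4.13 CPM in vehicle cells (log2 0.96, adjusted p = 0.0180). In inhibitor against Wnt3a cells 3 of them rose and 4 fell. SLC20A1, a phosphate importer, fell to 30.1 ± 1.57 CPM in inhibitor cells, against 77.6 ± 7.91 CPM in Wnt3a cells (log2 -1.37, adjusted p = 1.89e-05), and ENPP1, which makes the calcification inhibitor pyrophosphate, fell to 12.9 ± 1.82 CPM, against 29.4 ± 3.79 CPM in Wnt3a cells (log2 -1.19, adjusted p = 9.2e-05).

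The split of these lists in inhibitor against Wnt3a cells moved with the scaling. With library totals alone, 1 folate gene rose and 12 fell, 4 dynein heavy chains fell and none rose, 1 cilium assembly gene rose and 6 fell, and 3 TRP channels rose and 3 fell. In the calcium list 1 rose and 7 fell, in the vitamin K list 1 rose and 5 fell, and in the mineralisation list 1 rose and 6 fell. DYNC1H1 then missed the threshold (log2 0.30, adjusted p = 0.0538 in edgeR's test), and the medians of the TRP channel, vitamin K and mineralisation lists were -0.05, -0.23 and -0.20, against 0.20, 0.02 and 0.05 with TMM. On log2(TPM + 1), 1 rose and 12 fell in the folate list, 1 and 4 among dynein heavy chains, 1 and 2 in cilium assembly, 3 and 3 among TRP channels, 0 and 6 in the calcium list, 1 and 5 in the vitamin K list and 1 and 6 in the mineralisation list.

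**Figure D5:**
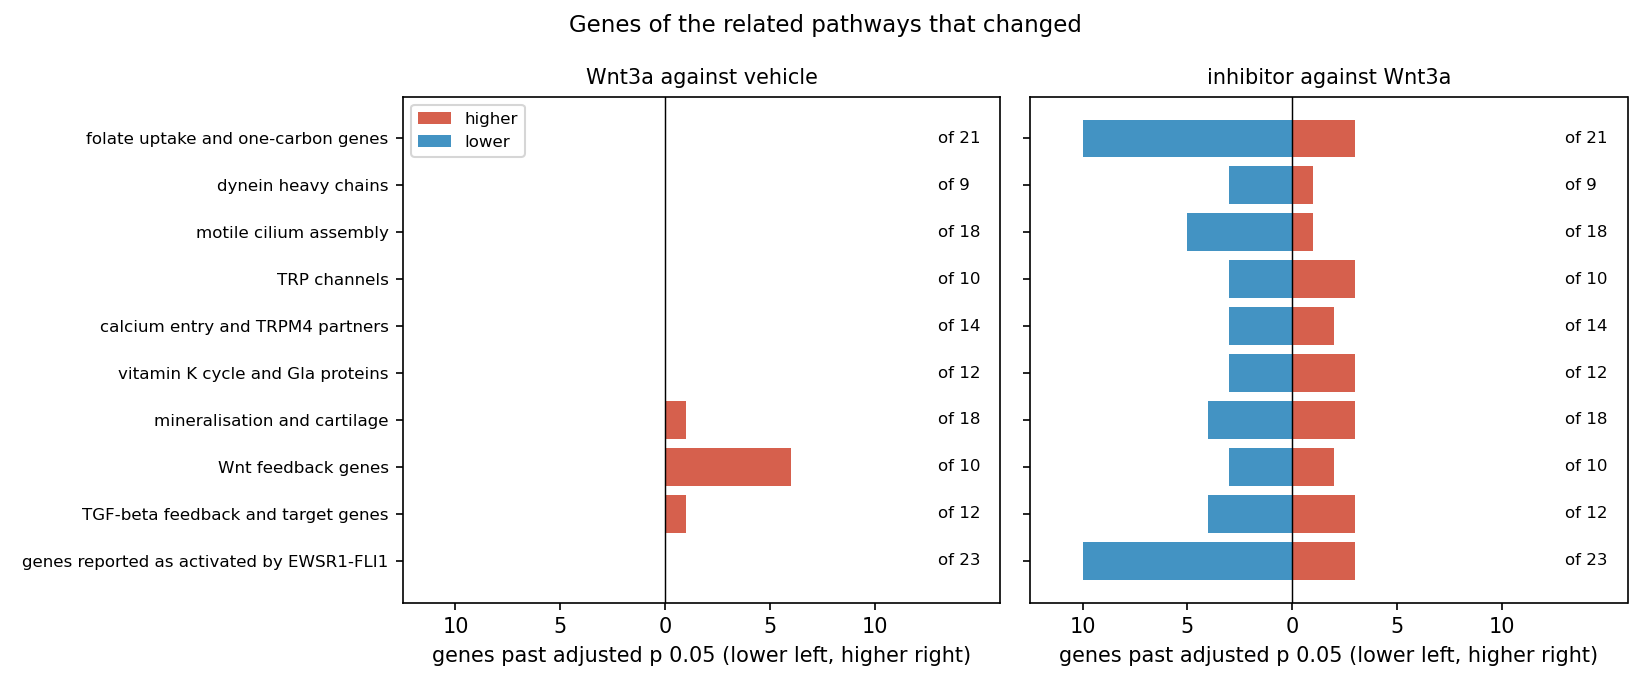
Number of genes past an adjusted p of 0.05 (x axis, lower to the left in blue, higher to the right in red) in each list (rows, with the number tested at the right) for Wnt3a against vehicle and inhibitor against Wnt3a. In Wnt3a against vehicle the lists around FOLR2, DNAH11, TRPM4 and MGP hold 1 call, BMP7, while 6 of 10 Wnt feedback genes were higher.

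Of the pathway lists, 6 of 10 Wnt feedback genes rose and none fell in Wnt3a against vehicle cells, and 2 rose and 3 fell in inhibitor against Wnt3a cells. Of 12 TGF-β feedback and target genes, TGFBI rose in Wnt3a against vehicle cells, and 3 rose and 4 fell in inhibitor against Wnt3a cells. With library totals alone the Wnt list had 1 riser and 4 fallers there, and the TGF-β list had 2 and 7 (median -0.33, against -0.08 with TMM). Of 23 genes reported as activated by EWSR1-FLI1, the fusion protein of this tumour, none was called in Wnt3a against vehicle cells (median log2 -0.15), and 3 rose and 10 fell in inhibitor against Wnt3a cells (median -0.09). With library totals alone 1 of them was lower in Wnt3a against vehicle cells, and in inhibitor against Wnt3a cells 2 rose and 11 fell (median -0.34). On log2(TPM + 1), 0 rose and 12 fell in inhibitor against Wnt3a cells (median -0.41). NKX2-2, one of them, averaged 36.1 ± 3.56 CPM in inhibitor cells, 72.3 ± 14.4 CPM in Wnt3a cells and 99.7 ± 6.57 CPM in vehicle cells, and fell in inhibitor against Wnt3a cells (log2 -1.0, adjusted p = 0.000337 in edgeR's test).

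Markers of the cell types known for these genes were counted as well. Of 10 macrophage markers, 9 were under 1 CPM in every group and C1QA and C1QB were at 0 in all libraries, with sums of 5.84 to 9.06 CPM in inhibitor cells, 2.0 to 2.41 CPM in Wnt3a cells and 2.33 to 3.92 CPM in vehicle cells. Most of that sum was CD68, which other cells also express, at 6.45 ± 1.79 CPM in inhibitor cells, 1.19 ± 0.431 CPM in Wnt3a cells and 1.79 ± 0.933 CPM in vehicle cells. Of 8 multiciliated cell markers, 5 were under 1 CPM, FOXJ1 among them, with sums of 6.90 to 15 CPM in inhibitor cells, 6.76 to 13.2 CPM in Wnt3a cells and 5.76 to 6.78 CPM in vehicle cells. These sums hide opposite changes in inhibitor against Wnt3a cells, where 1 of 3 tested rose and 1 fell (24.5% and 25.9% of all genes). PIFO had 5.21 against 0.579 CPM (log2 3.17, adjusted p = 0.000363 in edgeR's test). CAPS had 3.0 against 6.72 CPM (log2 -1.17, adjusted p = 0.0465). Of 8 markers of cartilage and smooth muscle, 5 were under 1 CPM, and the sums, mostly ACTA2 and TAGLN, were 912 to 1090 CPM in inhibitor cells, 714 to 1390 CPM in Wnt3a cells and 737 to 825 CPM in vehicle cells. The cartilage genes ACAN, COL2A1 and COL9A1 were at or near 0. Of 5 endothelial markers 4 were under 1 CPM, with sums of 1.41 to 2.85 CPM in inhibitor cells, 1.8 to 2.43 CPM in Wnt3a cells and 1.91 to 2.11 CPM in vehicle cells.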

How the data were processed

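Per the submitters' processing notes, reads were processed with CASAVA 1.8.2, Trimmomatic 0.36, STAR 2.5.2a and RSEM 1.2.31 on hg38. The annotation release, strand setting and any filters were not given in the sources used here. The 9 deposited gene tables hold, per the file headers, the authors' expected count, TPM, FPKM, length and effective length per gene. FPKM was not used. Of 22310 IDs at 0 in all libraries, 99.9% had the mean transcript length of GENCODE release 29 within 0.01 bases, so that release gave loci and transcripts.

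After 45 second pseudoautosomal rows were added to their partners, expected counts were rounded, and 17880 genes were kept by filterByExpr. Libraries were scaled with TMM and fitted in 1 model of 3 groups with the quasi-likelihood F test of edgeR 4.0.16 in R 4.3.3 (2-sided, Benjamini-Hochberg over all genes, threshold 0.05, common coefficient of variation 21.5%, 6 residual degrees of freedom). A standard error is the log2 difference divided by the square root of F. The 95% intervals are normal ones from it, which are narrower than the F test would give. Log2 mean transcript length was tested with limma 3.58.1 in 13130 genes with at least 0.1 TPM in all libraries. Both were tested on simulated data. The alternatives were RLE factors, library totals, 2 other count filters, DESeq2 1.42.0, limma-voom, limma on log2(TPM + 1), a replicate block, a fit of 2 groups alone and leaving out each library. Length was also tested without the TPM filter and as effective length.

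The 4 genes, the gene lists and the rule for named genes (the 4 genes, the 3 nearest in pattern to each, the 5 just outside the threshold, neighbours, up to 4 genes a list and a short panel) were chosen with earlier results of these data known.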

Additional observations from a re-analysis of the deposited data

How the results depend on the processing

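The number of the 4 genes lower in Wnt3a against vehicle cells, 4 as reported, was 2 with only the 2 groups compared, 2 on log2(TPM + 1) and 0 to 4 without single libraries. With the replicate number as a block it was 1. Libraries of the same number had correlations from -0.182 to 0.416, against -0.453 to 0.306 for different numbers. Between vehicle and Wnt3a libraries these were 0.015 to 0.416 and -0.453 to 0.209, so whether the libraries were paired was not settled. The log2 differences of the 4 genes stayed negative, at -2.44 to -1.29 for FOLR2, -1.20 to -0.78 for DNAH11, -0.67 to -0.59 for TRPM4 and -0.70 to -0.56 for MGP. All genes called there, 75 as reported, were 259 with every gene of at least 1 count, 299 in DESeq2 and 20 to 140 without single libraries, and the lower calls among them were 42, 52 and 0 to 18. In inhibitor against Wnt3a cells the number of the 4 genes called, 1 as reported, was 0 with library totals alone and 1 to 2 without single libraries, and on log2(TPM + 1) DNAH11 was at -0.12 and TRPM4 at -0.36, while TRPM4 was at -0.12 with library totals. All genes there, 4379 higher and 4634 lower as reported, were 2828 higher and 6425 lower with library totals and 2293 and 6352 on log2(TPM + 1). In inhibitor against vehicle cells 3 to 4 of the 4 genes were called throughout, and the split of 4462 higher and 4433 lower became 3061 and 6036 with library totals and 2722 and 5462 on log2(TPM + 1). Calls in transcript length, 0 as reported, were 0 to 2 without single libraries. Length differences of Wnt3a against vehicle changed sign for FOLR2 without vehicle replicate 3, in a range from -0.011 to 0.037 without single libraries, and for DNAH11, which ranged from -0.070 to 0.134 without single libraries. The causes were not tested. FOLR2 rested on 15 to 124 reads per library.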
